A study of Mus musculus with 5 samples.

Results

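The 10 genes described here are Angptl4, its relatives Angptl2, Angptl6 and Angptl7, and 6 genes whose products make, hold, resemble or act beside lipoprotein lipase: Lpl, Lmf1, Gpihbp1, Lipg, Vldlr and Lrp1. They were chosen by name, 10 of the 17657 genes in the table, and all 10 were present in it. RNA was sequenced from epidermal stem cells of Angptl4 knockout mice (KO, 2 libraries) and of wild-type mice (WT, 3 libraries), males of strain C57BL/6 labelled 8 weeks, whose cells were isolated from skin and kept in KGM2 medium. Epidermal stem cells are the basal keratinocyte progenitors that renew the epidermis. The sources used here do not say whether the knockout is germline or conditional, which part of Angptl4 it removes, or whether animals were pooled. Whether the libraries of 1 genotype are separate mice or cultures is not stated either, and the p-values here reflect the spread among these 5 libraries alone, some of which may be technical. The title of the series names proliferation of these cells under Angptl4 as the question.

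Lipoprotein lipase, the product of Lpl, cuts triglycerides out of circulating lipoproteins so that cells can take up the fatty acids. It is folded in the endoplasmic reticulum with the help of LMF1, crosses capillary endothelium on GPIHBP1, and is inhibited and unfolded by ANGPTL4, a secreted protein whose gene is a target of the PPAR nuclear receptors. ANGPTL4 is also known from skin wounds, where its C-terminal part binds integrins and matrix proteins of keratinocytes. Endothelial lipase, the product of Lipg, is a close relative of lipoprotein lipase that acts mainly on phospholipids, and the receptors VLDLR and LRP1 take up the remnant particles.

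In the KO cells Lipg and Angptl4 were about 6-fold lower, at 6.13-fold for Lipg and 5.89-fold for Angptl4, while Lpl was only 1.23-fold lower. Angptl2, Lmf1 and Lrp1 were each more than 2-fold higher in KO, at 2.46-fold, 2.23-fold and 2.07-fold. Angptl6 and Vldlr did not pass the test, and Angptl7 and Gpihbp1 had too few reads to be tested. Of the 8 tested genes, 6 thus had an adjusted p under 0.05 in edgeR's quasi-likelihood test with Benjamini-Hochberg adjustment over all 12957 tested genes, 3 higher and 3 lower in KO. Among all tested genes 40.8% passed, 20.4% higher and 20.4% lower in KO, so a call alone sets a gene little apart here. The 2 groups did not overlap in CPM (counts scaled to library size) for 6 of the 8, against 66.4% of all tested genes. The median log2 change was 0.69 over the 8 and 0.02 over all tested genes.

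The libraries held 20283084 to 20773407 expected counts. The KO libraries differed far more from each other than the WT libraries did, with a biological coefficient of variation of 28.8% in KO and 5.22% in WT, so values are given for each library. Keratinocyte markers were abundant in every library. Krt5, the basal keratin, took 2.44 and 1.88% of the counts in KO1 and KO2, against 1.68, 1.65 and 1.71% in WT1, WT2 and WT3. The summed TPM (a level per transcript length) of 10 keratinocyte markers, led by Krt5 and Krt14, was 45800 and 36300 in KO, against 36000, 35500 and 36600 in WT. Of the 10 markers 4 were higher and 2 lower in KO by the edgeR test, and 4 did not pass, with 5 higher and 2 lower without KO1, 7 and 3 without KO2, 0 and 2 without WT1 or WT2, and 1 and 2 without WT3. The lower pair, named after their values were seen, were Trp63, the master factor of basal keratinocytes, at 189 and 164 TPM in KO, against 333, 332 and 333 TPM in WT (log2 change -0.73, adjusted p = 0.00518), and the integrin chain Itga6, at 216 and 199 TPM in KO, against 421, 401 and 369 TPM in WT (-0.91, adjusted p = 0.00413). Krt15, a marker of bulge and basal stem cells named after its values were seen, stood at 3.08 and 1.66 TPM in KO and at 0.11, 0.17 and 0.58 TPM in WT. It was among the 4 higher markers but reached the count filter through KO. Its reads were 54.63 and 29.78 in KO, against 2, 3.02 and 10.28 in WT. With a mean of at least 50 counts, 9 markers were tested, 3 higher and 2 lower in KO.

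**Figure D1:**
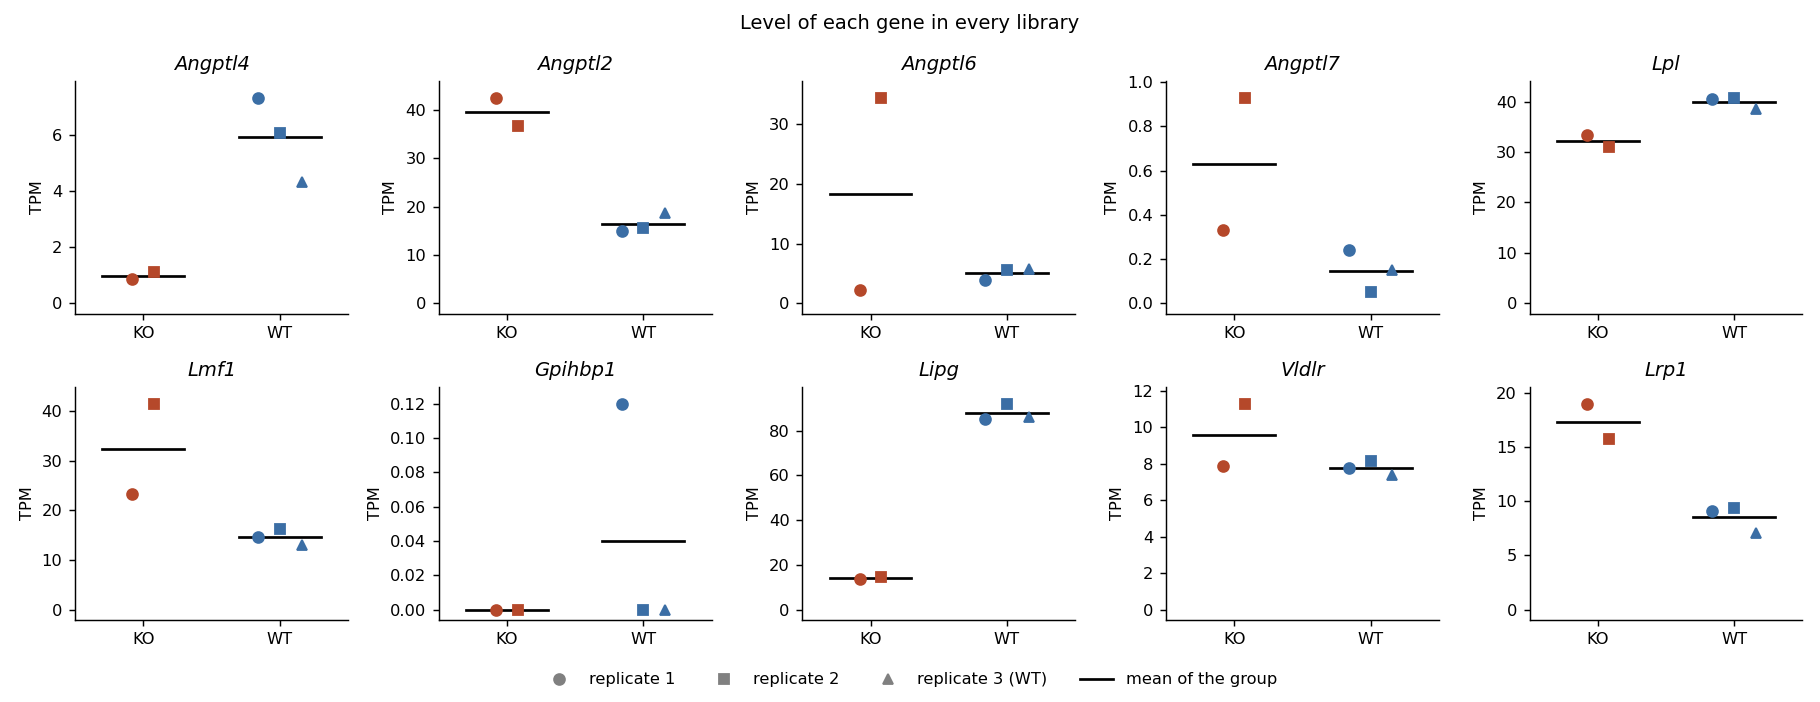
Each panel plots 1 gene's level in TPM on its own vertical axis, with KO libraries in red at the left and WT libraries in blue at the right. Marker shapes stand for the replicate number and horizontal lines for the group mean (KO n = 2, WT n = 3). Angptl4, Lpl and Lipg lie lower in both KO libraries, Angptl2, Lmf1 and Lrp1 lie higher in both, and the KO libraries stand on either side of WT for Angptl6.

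The promoters of the 3 genes that were higher in KO are printed together with that of Angptl6, which split the KO libraries, so that their starts can be compared. RefSeq promoter entries of build GRCm38.p6 were matched for 6 of the 10 genes and run from 250 bases before to 50 bases after the start, 5′ to 3′ on the gene's own strand. The windows are chr2:33215711-33216010 plus for Angptl2, chr17:25578924-25579223 plus for Lmf1, chr10:127621099-127621398 minus for Lrp1 and chr9:20879661-20879960 minus for Angptl6. Capitals mark the GC box GGGCGG or its reverse complement.
Angptl2 promoter: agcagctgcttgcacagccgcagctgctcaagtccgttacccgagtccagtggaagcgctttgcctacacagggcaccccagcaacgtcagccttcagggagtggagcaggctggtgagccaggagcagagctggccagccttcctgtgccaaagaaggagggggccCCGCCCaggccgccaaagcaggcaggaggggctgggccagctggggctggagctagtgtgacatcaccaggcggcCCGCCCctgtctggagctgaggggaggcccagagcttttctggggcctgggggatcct
Lmf1 promoter: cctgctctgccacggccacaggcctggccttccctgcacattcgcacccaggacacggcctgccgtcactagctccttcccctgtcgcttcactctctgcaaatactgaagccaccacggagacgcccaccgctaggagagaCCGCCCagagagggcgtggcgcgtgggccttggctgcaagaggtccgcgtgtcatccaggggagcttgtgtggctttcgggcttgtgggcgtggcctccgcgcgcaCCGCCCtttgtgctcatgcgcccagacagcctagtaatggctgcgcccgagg
Lrp1 promoter: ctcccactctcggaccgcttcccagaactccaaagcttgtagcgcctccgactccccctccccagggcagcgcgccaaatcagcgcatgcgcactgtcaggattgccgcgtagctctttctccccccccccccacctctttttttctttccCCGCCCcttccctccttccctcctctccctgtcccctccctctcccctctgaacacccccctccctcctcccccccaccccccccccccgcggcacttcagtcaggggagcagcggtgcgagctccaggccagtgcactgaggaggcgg
Angptl6 promoter: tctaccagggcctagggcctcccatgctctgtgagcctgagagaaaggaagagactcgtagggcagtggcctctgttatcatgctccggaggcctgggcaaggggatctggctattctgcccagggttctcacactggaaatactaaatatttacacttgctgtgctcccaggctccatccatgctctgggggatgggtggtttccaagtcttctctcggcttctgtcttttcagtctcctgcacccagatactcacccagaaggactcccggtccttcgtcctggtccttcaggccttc
The GC box occurred 2 times for Angptl2, 2 times for Lmf1, 1 time for Lrp1 and 0 times for Angptl6, and at least 1 stood in 35.7% of 32851 RefSeq promoter windows. G and C made up 66.7, 66.3, 67.7 and 55.7% of the windows in the printed order. Both strands were also searched for the AP-1 motif TGANTCA (in 7.81% of all windows), the hypoxia core ACGTG (19.6%), the nuclear receptor motif AGGTCA (16.3%) and the TEAD motif GGAATG (14.7%), and none of these letters stood in the 4 windows. These matches describe the letters only.

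The targeted gene was low in both libraries labelled KO and did not vanish. Angptl4 (NCBI gene 57875, on the minus strand of chromosome 17 at 33774900 to 33781575, build GRCm38.p6) had 0.86 and 1.11 TPM in KO1 and KO2, against 7.34, 6.09 and 4.34 TPM in WT1, WT2 and WT3. The highest KO library lay well under the lowest WT library. Relative to their mean, the WT values themselves spread more than those of any other tested member of the set. In counts these levels rest on 17 and 22 reads in KO, against 143, 119 and 85 in WT. Summed over libraries and scaled by depth, KO held 17.1% of the WT level (95% exact binomial interval 12.0 to 23.9%, which covers counting error only). The log2 change was -2.56 ± 0.32 (SE, adjusted p = 0.00458, edgeR), and 2.35% of tested genes changed by more. Since the removed part is not named, reads that map outside it cannot be told apart from intact transcript. With a separate spread for each group in limma-voom the adjusted p was 0.127 (range over all alternatives 5.68e-09 to 0.127). Angptl4 was a gene of modest level even in WT, where 47.8% of the genes in the table had a lower mean TPM.

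Angptl2, which encodes a secreted protein known for promoting inflammation and tissue remodelling, was the angiopoietin-like gene with the most transcript in every library, closely followed by Angptl6 in KO2. Angptl2 (NCBI gene 26360, chromosome 2, 33215951 to 33247725, plus strand) stood at 42.6 and 36.7 TPM in KO1 and KO2, against 14.9, 15.6 and 18.6 TPM in WT1, WT2 and WT3. The lower KO library was thus well above the highest WT library. The mean was 39.6 ± 4.19 TPM in KO (SD, n = 2) and 16.4 ± 1.96 TPM in WT (SD, n = 3), with a log2 change of 1.3 ± 0.13 (SE, adjusted p = 0.00303, edgeR). The gene lies inside Ralgps1, which runs on the opposite strand and had 4.80 and 4.25 CPM in KO, against 2.05, 2.13 and 2.14 CPM in WT (log2 change 1.10, adjusted p = 0.00844, edgeR). Since no source used here gives the strand setting of the counting, reads of the 2 genes cannot be told apart where exons overlap. On the same scale Angptl2 had 75.2 and 64.6 CPM in KO, against 25.9, 27.0 and 32.4 CPM in WT, so Ralgps1 was the far smaller of the pair.

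Angptl6, whose product is a circulating factor also called angiopoietin-related growth factor and known in mice to act on keratinocytes and metabolism, went opposite ways in the 2 KO libraries. Angptl6 (NCBI gene 70726, chromosome 9, 20873808 to 20879822, minus strand) stood at 2.22 TPM in KO1 and 34.5 TPM in KO2, against 3.92, 5.54 and 5.75 TPM in WT1, WT2 and WT3. KO1 lay below every WT library and KO2 far above them. In counts this was 36.62 and 589.16 reads in KO, against 64.92, 94.33 and 96.75 in WT. The fitted log2 change was 1.87 ± 0.98 (SE, adjusted p = 0.177, edgeR). It was 2.77 without KO1 (adjusted p = 9.45e-06) and -1.18 without KO2 (adjusted p = 0.0126), with a range over all alternatives of 9.45e-06 to 0.647, so no direction can be given for the genotype. The gene overlaps A230050P20Rik in part, which was not analysed here.

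Angptl7, known from cornea and eye tissue, was close to the limit of detection. Angptl7 (NCBI gene 654812, chromosome 4, 148495181 to 148500462, minus strand) had 7.07 and 20.01 reads in KO, against 5, 1 and 3.14 reads in WT. Its summed and depth-scaled ratio was 4.57 (95% exact binomial interval 2.09 to 11.1, counting error only). Without a count filter edgeR gave a log2 change of 2.11 ± 0.74 (SE, adjusted p = 0.0872). It lies inside Mtor on the opposite strand, which had 68.1 and 70.8 CPM in KO, against 55.0, 52.1 and 59.4 CPM in WT, so stray Mtor reads cannot be told apart from its own.

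In KO the angiopoietin-like genes together had more transcript, of which Angptl4 was a far smaller share. Summed with Angptl1, the family reached 46.0 and 73.2 TPM in KO1 and KO2, against 26.5, 27.3 and 28.8 TPM in WT1, WT2 and WT3. Angptl4 made up 1.87 and 1.52% of the family's TPM in KO, against 27.7, 22.3 and 15.0% in WT. Angptl2 made up 92.6 and 50.1% in KO, against 56.2, 57.1 and 64.4% in WT, the low KO2 share standing beside 47.1% of Angptl6 there. The groups did not overlap in the family sum or in the Angptl4 share, each with an exact permutation p of 0.1, two-sided, the smallest that 10 splits of 2 against 3 libraries allow. Angptl1 was listed at 0 in both KO libraries and at 0.09 TPM or less in WT.

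The lipase that Angptl4 inhibits changed little in transcript level. Lpl (NCBI gene 16956, chromosome 8, 68880555 to 68906932, plus strand) stood at 33.3 and 30.9 TPM in KO1 and KO2, against 40.6, 40.8 and 38.5 TPM in WT1, WT2 and WT3. Both KO libraries were below the lowest WT library, by a small step that was nonetheless wider than the spread inside each group. The mean was 32.1 ± 1.68 TPM in KO (SD, n = 2) and 40.0 ± 1.25 TPM in WT (SD, n = 3). The log2 change was -0.30 ± 0.07 (SE, adjusted p = 0.0255, edgeR), and 60.6% of tested genes changed by more. The adjusted p was above 0.05 when WT1, WT2 or WT3 was left out (0.111, 0.105 and 0.0772) and under a separate spread (0.11), in a range over all alternatives of 0.00163 to 0.166. The sign was negative in every alternative. These values are RNA and carry no information on lipase protein or activity, which is where ANGPTL4 is known to act.

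Endothelial lipase was far lower in KO, by a log2 change close to that of Angptl4. Lipg (NCBI gene 16891, chromosome 18, 74939322 to 74961263, minus strand) stood at 13.7 and 14.5 TPM in KO1 and KO2, against 85.2, 92.1 and 86.1 TPM in WT1, WT2 and WT3. The 2 KO libraries were nearly alike, as were the 3 WT libraries, and nothing lay between them. In counts these were 546 and 580 reads in KO, against 3349, 3630 and 3397 in WT. The log2 change was -2.62 ± 0.08 (SE, adjusted p = 0.000223, edgeR), and 2.17% of tested genes changed by more. Every one of the 16 alternatives kept the call, with an adjusted p of 0.01 at most. In WT 89.4% of the genes in the table had a lower mean TPM than Lipg, and in KO 59.6%.

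With Lipg much lower and Lpl little changed, the order of the 2 lipases differed between genotypes. The ratio of Lipg to Lpl in TPM was 0.413 and 0.468 in KO1 and KO2, against 2.1, 2.26 and 2.23 in WT1, WT2 and WT3, and the FPKM columns (fragments per length and depth) gave the same values to 3 digits. Lpl was thus the higher of the pair in each KO library, and Lipg in each WT library. Their summed level was 47.0 and 45.4 TPM in KO, against 126, 133 and 125 TPM in WT. Each quantity separated the groups with an exact permutation p of 0.1, two-sided, again the smallest possible. In bulk RNA, fewer cells that make a transcript and less of it per cell cannot be told apart.

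**Figure D2:**
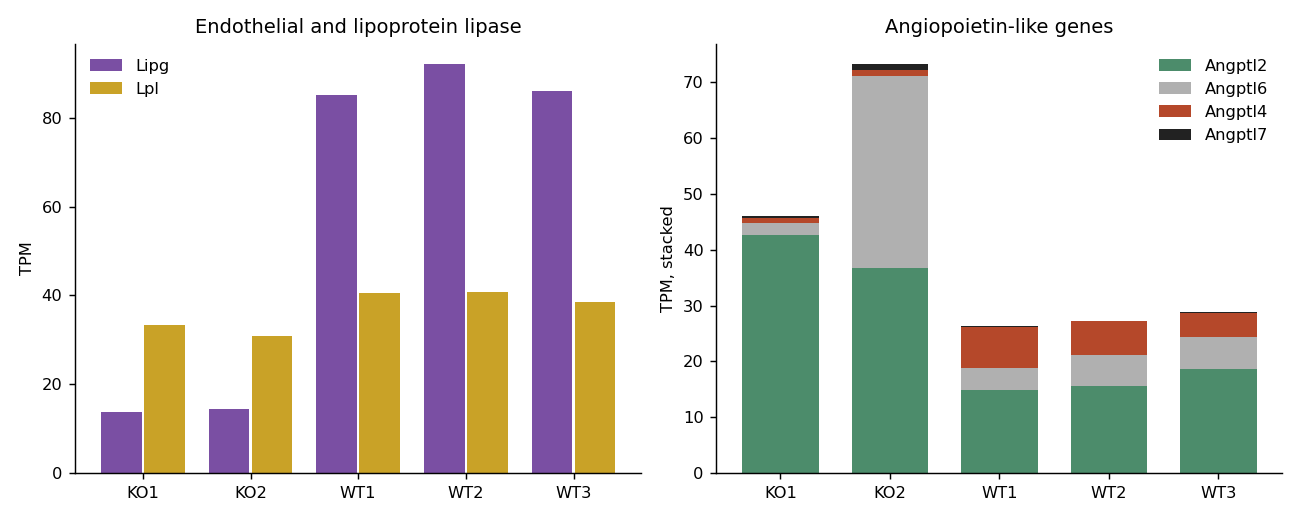
Left, TPM of Lipg (purple) and Lpl (gold) as paired bars for each library; right, TPM of the angiopoietin-like genes stacked for each library, with KO1 and KO2 to the left of the WT libraries. Lipg stands at 13.7 and 14.5 TPM in KO and at 85.2 to 92.1 TPM in WT, and the Angptl6 segment is large in KO2 alone.

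The names of these lipases point to vascular cells and fat, so markers of those cells were read beside them. Endothelial markers summed to 12.1 and 14.5 TPM in KO, against 16.7, 15.5 and 16.8 TPM in WT, of which Egfl7 gave 8.23 and 11.3 TPM in KO, against 13.3, 12.1 and 13.5 TPM in WT, and Pecam1 at most 1.21 TPM in any library. Of the 12 endothelial markers 5 were tested, and the called ones, named after their values were seen, were all scarce. Kdr, at 0.25 and 0.46 TPM in KO, against 1.05, 0.81 and 1.11 TPM in WT, was lower (log2 change -1.54, adjusted p = 0.0293, edgeR). Tie1 (1.10, adjusted p = 0.0483) and Flt1 (1.61, adjusted p = 0.0448) were higher, with at most 1.12 TPM in any library. No endothelial marker was called without WT1, WT2 or WT3, 0 were higher and 1 lower without KO1, and 3 were higher and 2 lower without KO2. Cdh5 stood at 0.19 TPM or less and Cldn5 at 0.07 TPM or less in every library. The part of endothelial cells in the Lipg level was not tested. Adipocyte markers summed to 2.65 and 2.99 TPM in KO, against 1.34, 1.62 and 1.34 TPM in WT, mostly Adrb3, the 1 marker above the count filter, which it reached through its KO reads, and Fabp4, with Adipoq at 0 in KO and 0.16 TPM or less in WT. Macrophage and leukocyte markers summed to 71.6 and 61.1 TPM in KO, against 54.6, 58.2 and 47.8 TPM in WT, nearly all of it Cd68 (65.4 and 56.3 TPM in KO, against 41.2, 47.0 and 41.2 TPM in WT) with Cd14 next. Of 6 tested markers Cd68 was called higher, with 0 higher and 0 lower without WT1, 0 and 2 without WT3, and 1 and 1 without KO1. The macrophage lysozyme Lyz2, named after its values were seen, stood at 0 and 0.28 TPM in KO, against 2.14, 2.64 and 0.19 TPM in WT, and C1qa, C1qb and Mrc1 had at most 1 read in a KO library, against 0 to 19 reads in the WT libraries. Ptprc was at most 0.06 TPM and Adgre1 at most 0.07 TPM.

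Lmf1, which encodes the membrane protein of the endoplasmic reticulum that lets Lpl, Lipg and hepatic lipase reach their active dimer, was higher in both KO libraries but unequally so. Lmf1 (NCBI gene 76483, chromosome 17, 25579174 to 25662831, plus strand, 8.11 Mb from Angptl4) stood at 23.2 and 41.5 TPM in KO1 and KO2, against 14.7, 16.3 and 13.1 TPM in WT1, WT2 and WT3. KO2 was far above KO1, and KO1 was still above all WT libraries. The mean was 32.4 ± 13.0 TPM in KO (SD, n = 2) and 14.7 ± 1.58 TPM in WT (SD, n = 3). The log2 change was 1.16 ± 0.26 (SE, adjusted p = 0.0198, edgeR). The adjusted p was above 0.05 when WT1, WT2 or WT3 was left out (0.0796, 0.064 and 0.081) and on log2(TPM + 1) without a filter (0.0616), in a range over all alternatives of 2.58e-05 to 0.081. Without KO2 the log2 change was 0.69 and without KO1 it was 1.51.

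Gpihbp1, the endothelial anchor of lipoprotein lipase, was not detected in KO at this depth. Gpihbp1 (NCBI gene 68453, chromosome 15, 75596630 to 75598213, plus strand) had 0 reads in both KO libraries, and 1, 0 and 0 reads in WT1, WT2 and WT3. A count of 0 over the 40790725 counts of both KO libraries allows a level of up to 0.0735 CPM (3 counts). The partner that carries Lpl to the capillary lumen was therefore at or near 0 in both genotypes.

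Of the receptors, Lrp1 was higher in KO and Vldlr did not pass the test. Lrp1 encodes the large endocytic receptor that clears remnants, proteases and matrix proteins and binds Lpl itself. Lrp1 (NCBI gene 16971, chromosome 10, 127538157 to 127621148, minus strand) stood at 19.0 and 15.7 TPM in KO1 and KO2, against 9.1, 9.34 and 7.05 TPM in WT1, WT2 and WT3. The gene overlaps the antisense gene Gm16217, which was not analysed here. The groups did not overlap, and the lower KO library was well above the highest WT library. The log2 change was 1.05 ± 0.15 (SE, adjusted p = 0.00654, edgeR), and the call held in all 16 alternatives with an adjusted p of 0.0378 at most. Vldlr, which brings triglyceride-rich particles to the cell beside Lpl in muscle and fat, is encoded on chromosome 19, 27216480 to 27254231, plus strand (NCBI gene 22359). It stood at 7.86 and 11.3 TPM in KO1 and KO2, against 7.79, 8.13 and 7.39 TPM in WT1, WT2 and WT3. KO1 lay inside the WT range and KO2 above it, with a log2 change of 0.32 ± 0.16 (SE, adjusted p = 0.161, edgeR). Without KO1 the log2 change was 0.55 (adjusted p = 0.000554) and without KO2 it was 0.05 (adjusted p = 0.594), and these were the lowest and highest adjusted p over all alternatives.

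Summed markers of fibroblasts and of mural cells, which are known to express Angptl2 and Lrp1, also stood higher in KO. Fibroblast markers summed to 136 and 64.4 TPM in KO1 and KO2, against 44.8, 45.0 and 41.0 TPM in WT. Several markers, Dcn, Pdgfrb, Postn, Col6a2 and Bgn among them, had few reads in WT and reached the count filter through KO, so the count called, 7 higher of 11 tested, gives no independent direction. It was 4 of 6 with a mean of at least 50 counts, 6 without KO1, 10 without KO2, and 3, 4 and 3 without WT1, WT2 and WT3. The most abundant were Fbln1, at 71.1 and 38.8 TPM in KO, against 39.8, 39.6 and 39.2 TPM in WT, and Thy1, at 17.1 and 6.64 TPM in KO, against 2.14, 2.25 and 1.18 TPM in WT. The fibroblast collagen Col1a1 stood at 6.18 and 1.38 TPM in KO, against 0.49, 0.53 and 0.05 TPM in WT, a gene named after its values were seen. Mural cell markers summed to 1860 and 712 TPM in KO, against 293, 291 and 337 TPM in WT, led by Acta2 and Mcam. Of 5 tested markers 4 were higher in KO, and 3 without WT1, WT2 or WT3. Acta2 lost the call without WT1, WT2 or WT3, with an adjusted p up to 0.0676 (edgeR). Its log2 change ran from 1.25 to 2.86 with 1 library left out. Mcam kept the call without each WT library, with an adjusted p of 0.0367 at most (edgeR) and a log2 change of 1.19 to 1.80 with 1 library left out. The mural marker Cspg4, named after its values were seen, stood at 6.2 and 10.8 TPM in KO, against 0.06 TPM or less in WT. It had 5, 4 and 5 reads in WT and reached the count filter through KO, so the mural count gives no independent direction either. Rgs5, a defining pericyte gene, was at 0.07 TPM or less in every library. KO1 was the higher KO library in both sums, for Angptl2 and for Lrp1, but not for Cspg4. The part of such cells in the higher Angptl2 and Lrp1 was not tested. Melanocyte markers, led by Mlana and Pmel, summed to 5.25 and 7.93 TPM in KO, against 5.82, 5.66 and 4.85 TPM in WT, with none of 5 past the test.

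**Figure D3:**
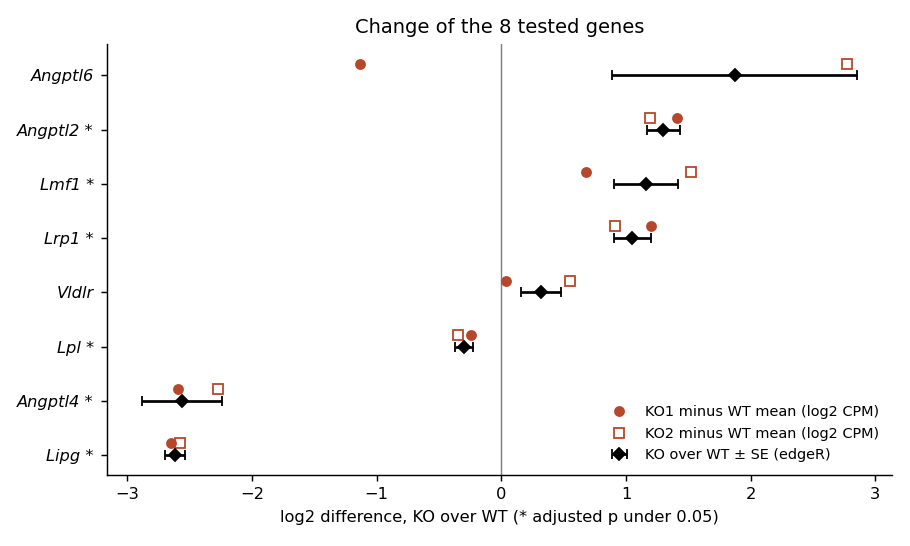
The horizontal axis gives the log2 difference of KO over WT for the 8 tested genes, ordered by change, with diamonds and bars for the edgeR estimate ± SE. Filled circles and open squares give KO1 and KO2 minus the WT mean, and asterisks mark adjusted p under 0.05. KO1 and KO2 fall close together for Lipg at -2.65 and -2.58 and far apart for Angptl6 at -1.13 and 2.77.

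Set on 1 scale of TPM, the order of levels also differed between genotypes. In KO the means ran from Angptl2 through Lmf1, Lpl, Angptl6, Lrp1, Lipg, Vldlr, Angptl4 and Angptl7 to Gpihbp1. In WT they ran from Lipg through Lpl, Angptl2, Lmf1, Lrp1, Vldlr, Angptl4, Angptl6 and Angptl7 to Gpihbp1. Lipg was thus the sixth of the set in KO and the first in WT. In KO, library ranges separated Lrp1 from Lipg, Lipg from Vldlr, Vldlr from Angptl4, and Angptl7 from Gpihbp1, and the other neighbours overlapped. In WT, they separated Lipg from Lpl, Lpl from Angptl2, Lmf1 from Lrp1, Vldlr from Angptl4, and Angptl6 from Angptl7, and the other neighbours overlapped.

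The KO libraries split the genes into those that moved alike and those that did not. Measured against the WT mean in log2 CPM, Lipg was at -2.65 in KO1 and -2.58 in KO2, Angptl4 at -2.59 and -2.27, and Lpl at -0.24 and -0.35. Angptl2 was at 1.41 and 1.19 and Lrp1 at 1.20 and 0.91, again close. Lmf1, at 0.68 and 1.52, and Vldlr, at 0.04 and 0.55, were further apart, with KO2 the higher for both. Angptl6 was the 1 tested gene of the 8 with a 2-fold or larger gap between the KO libraries, 3.90 on the log2 scale. These gaps rest on 1 library each and have no replicate.

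**Figure D4:**
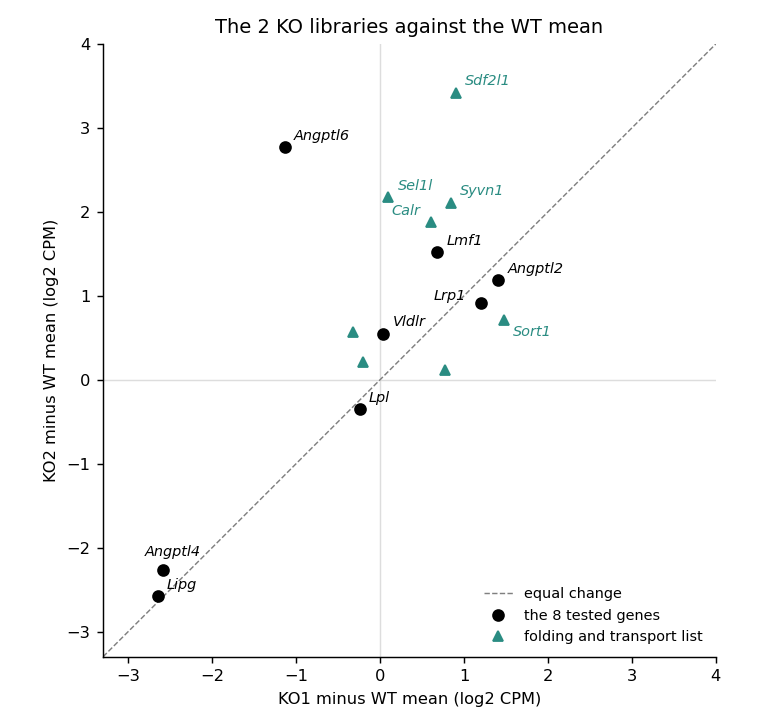
Each point is 1 gene, with KO1 minus the WT mean on the horizontal axis and KO2 minus the WT mean on the vertical axis, both in log2 CPM. Black circles are the 8 tested genes, green triangles are genes of lipase folding and transport, and the dashed line marks equal change. Lipg, Lpl, Angptl2 and Lrp1 lie near the line, while Angptl6, Lmf1, Sdf2l1, Sel1l and Syvn1 lie above it.

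The wider lipoprotein machinery was read from 11 lists of 104 genes, of which 84 were tested. In KO 29 were higher, 8 were lower and 47 did not pass, with a median log2 change of 0.25 beside 0.02 over all tested genes. Thus 37 of the 84 passed, beside 40.8% of all 12957 tested genes, of which 20.4% were higher and 20.4% lower. The same shares stand beside the counts given for each single list. These counts moved widely when a library was left out, to 34 higher and 20 lower without KO1, 48 and 18 without KO2, 12 and 1 without WT1, 13 and 1 without WT2, and 13 and 2 without WT3.

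Of 8 tested genes that fold and carry lipases, 4 were higher in KO and none was lower, with a median log2 change of 1.27, and for all of the 4 but Sort1 KO2 was the higher KO library. Syvn1, the ubiquitin ligase that pairs with SEL1L in quality control of the endoplasmic reticulum, had 115 and 277 CPM in KO1 and KO2, against 66.2, 65.7 and 60.0 CPM in WT (log2 change 1.61 ± 0.35, adjusted p = 0.019, edgeR). Sdf2l1, a chaperone of the endoplasmic reticulum, had 33.8 and 194 CPM in KO, against 17.7, 19.7 and 16.8 CPM in WT (2.65 ± 0.68, adjusted p = 0.0296). For both, KO2 was far above KO1, as it was for Lmf1. The chaperone Calr, named after its values were seen, had 1580 and 3820 CPM in KO, against 1070, 1060 and 977 CPM in WT (adjusted p = 0.0305). Sort1, the sorting receptor sortilin, went the other way within KO, at 9.74 and 5.70 CPM, against 2.92, 3.68 and 3.79 CPM in WT (1.16 ± 0.28, adjusted p = 0.0248). Without any 1 of the WT libraries none of the 8 passed, while 7 were higher without KO1 and 5 higher and 2 lower without KO2. Adjusted p over all alternatives ran from 4.15e-07 to 0.0794 for Syvn1, from 1.84e-07 to 0.133 for Sdf2l1 and from 0.000284 to 0.0998 for Sort1.

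Proprotein convertases, which cut ANGPTL4 and endothelial lipase, gave no call among 4 tested. Furin, the best known of them, had 268 and 154 CPM in KO1 and KO2, against 153, 154 and 149 CPM in WT, so that KO1 alone stood above the rest (log2 change 0.47 ± 0.23, adjusted p = 0.151, edgeR). Pcsk6 changed by -0.13 (adjusted p = 0.462) and Pcsk7 by 0.25 (adjusted p = 0.0656) on the log2 scale. Without KO2 3 of the 4 were higher, and without KO1 1 was lower. Heparan sulfate proteoglycans, which hold lipases at cell surfaces, had 6 of 18 higher and 1 lower, with a median log2 change of 0.37. Sulf2, an extracellular enzyme that removes sulfate groups from heparan sulfate, had 136 and 140 CPM in KO, against 93.8, 93.4 and 101 CPM in WT (0.52 ± 0.07, adjusted p = 0.00549). The surface proteoglycans Sdc3 (0.95 ± 0.20, adjusted p = 0.0167) and Gpc4 (0.83 ± 0.16, adjusted p = 0.0137) were higher by log2 change, and lost the call without WT1, WT2 or WT3, with adjusted p up to 0.0701 and 0.0638 (ranges over all alternatives 0.000124 to 0.074 and 2.29e-05 to 0.0638). The list had 7 higher and 4 lower without KO1, 12 and 2 without KO2, and 1 and 0 without each WT library.

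Apolipoproteins held the steepest rise among the lists. Apoe, the ligand by which VLDLR and LRP1 recognise remnants, had 308 and 272 CPM in KO1 and KO2, against 32.1, 31.9 and 30.9 CPM in WT1, WT2 and WT3. Its log2 change was 3.20 ± 0.08 (adjusted p = 0.000223, edgeR), with the KO libraries close to each other. Apoc1, an apolipoprotein known to restrain lipoprotein lipase and remnant uptake, had 73.7 and 50.6 CPM in KO, against 10.2, 9.39 and 11.0 CPM in WT (2.61 ± 0.18, adjusted p = 0.00179). Apod did not pass (0.92, adjusted p = 0.539), and both calls held with each library left out. The list's other named genes were untested or not analysed here, among them Apoc2, the activator of lipoprotein lipase, and Apoa5 and Apoc3.

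The receptors around Vldlr and Lrp1 gave 1 higher and 3 lower of 10 tested, with a median log2 change of -0.09. Lrp8, the reelin and APOE receptor closest to Vldlr in structure, had 23.5 and 13.5 CPM in KO, against 65.9, 65.0 and 62.3 CPM in WT (-1.80 ± 0.24, adjusted p = 0.00518, edgeR). Lrp10, another member of the receptor family, was higher, with 262 and 252 CPM in KO, against 175, 164 and 160 CPM in WT (0.63 ± 0.08, adjusted p = 0.00414). Without each WT library the list gave Lrp10 higher and Lrp8 lower, without KO1 1 and 5, and without KO2 3 and 4.

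Beyond the cell surface, the other lipases gave 1 call among 6 tested. Lipa, the lysosomal acid lipase that digests lipids of particles taken up by receptors, had 18.8 and 20.8 CPM in KO, against 10.3, 10.5 and 9.42 CPM in WT (log2 change 0.97 ± 0.11, adjusted p = 0.00367, edgeR). Lipe (-0.67, adjusted p = 0.0984) and Liph (0.39, adjusted p = 0.35) did not pass, and 1 gene was lower without KO2. Among 8 tested genes of fatty acid uptake, 3 were higher and 2 lower, with a median of 0.07. Slc27a1, a fatty acid transport protein, had 30.7 and 25.3 CPM in KO, against 11.8, 13.7 and 12.9 CPM in WT (1.13 ± 0.12, adjusted p = 0.00368). Slc27a3 was also higher (1.62 ± 0.32, adjusted p = 0.0138) and the acyl-CoA synthetase Acsl5 lower (-0.39 ± 0.07, adjusted p = 0.00973). Both lost the call without WT1, WT2 or WT3, with adjusted p up to 0.0635 and 0.0588 (ranges over all alternatives 1.19e-05 to 0.0723 and 4.43e-05 to 0.123). Cd36, the fatty acid translocase, had 1 read or none in any library. The uptake list gave 3 higher and 4 lower without KO1, 6 and 2 without KO2, and 1 and 0 without each WT library.

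Angptl4 is itself a PPAR target, and most of its fellow targets were higher in KO while Angptl4 was lower. Of 10 PPAR targets tested 8 were higher and none lower, with a median log2 change of 0.78. Acadl, a dehydrogenase of long-chain fatty acid oxidation, had 85.7 and 81.5 CPM in KO, against 39.3, 35.0 and 33.3 CPM in WT (1.22 ± 0.09, adjusted p = 0.00196, edgeR). The gate enzyme of mitochondrial fatty acid import Cpt1a (1.11 ± 0.15, adjusted p = 0.00521) and the oxidation enzyme Ech1 (0.83 ± 0.08, adjusted p = 0.00281) were higher too. Pdk4, a kinase that holds back pyruvate oxidation, named after its values were seen, was scarce and reached the count filter through KO, at 0.881 and 2.51 CPM in KO, against 0.195, 0.145 and 0.243 CPM in WT. Without KO1 8 were higher, without KO2 9 were higher and 1 lower, and without WT1, WT2 and WT3 4, 5 and 5 were higher.

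The known regulators of Angptl4 gave 3 higher and 2 lower of 10 tested, with a median log2 change of 0.22. Epas1, which encodes the hypoxia factor HIF2A, had 25.7 and 14.2 CPM in KO, against 6.63, 5.47 and 5.39 CPM in WT (1.77 ± 0.27, adjusted p = 0.00735, edgeR). Ppard, the PPAR form best known in keratinocytes, had 317 and 314 CPM in KO, against 442, 461 and 441 CPM in WT (-0.50 ± 0.08, adjusted p = 0.00713). Smad3, a mediator of TGF-beta signals, was lower as well (-0.38 ± 0.07, adjusted p = 0.0103). The Ppard call was lost without WT1 or WT2 and the Smad3 call without WT1, WT2 or WT3, with adjusted p up to 0.0516 and 0.0669 (ranges over all alternatives 1.49e-10 to 0.115 and 0.000528 to 0.115). The list gave 4 higher and 3 lower without KO1, 4 and 4 without KO2, 1 and 0 without WT1 or WT2, and 1 and 1 without WT3. Among integrin and matrix partners of ANGPTL4, 1 of 7 passed. Itgb5, which pairs with the alpha v chain and is a reported ANGPTL4 partner, had 107 and 88.6 CPM in KO, against 40.1, 39.4 and 43.0 CPM in WT (1.26 ± 0.10, adjusted p = 0.00218). Itgb1 (-0.34 ± 0.11, adjusted p = 0.0654) and Fn1 (0.87 ± 0.33, adjusted p = 0.0853) did not pass, and the list gave 1 higher and 3 lower without KO1 and 3 and 2 without KO2.

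**Figure D5:**
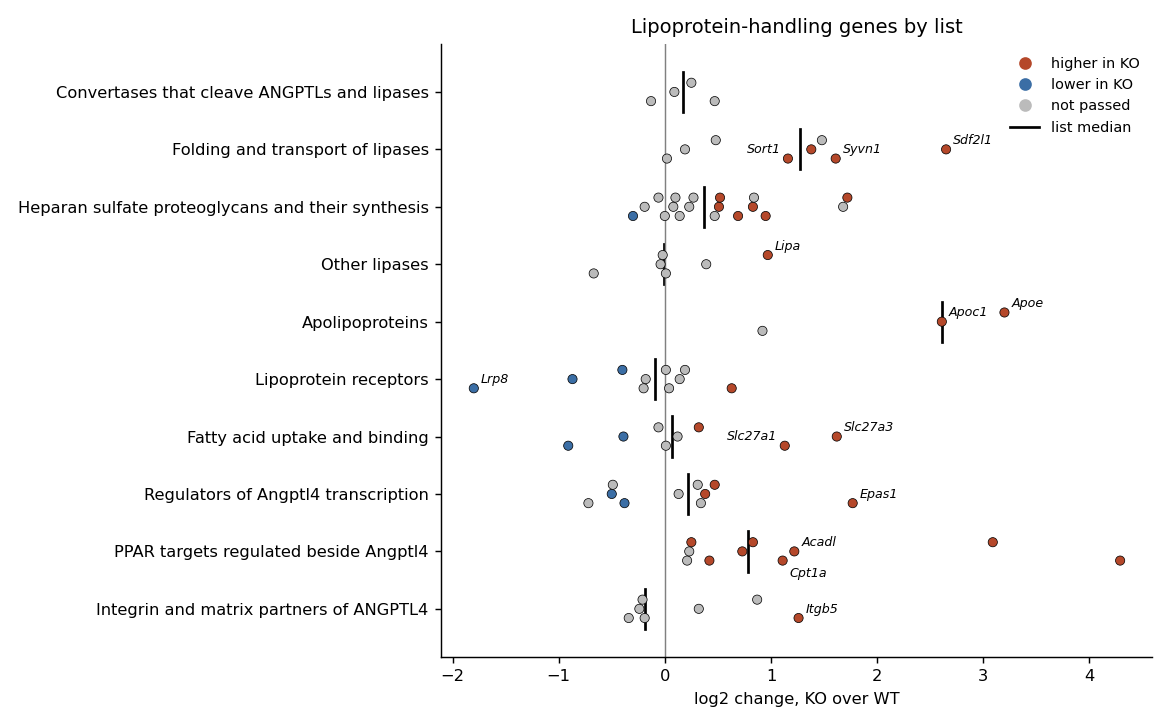
Each point is 1 tested gene at its log2 change of KO over WT on the horizontal axis, in rows by list, with red for higher and blue for lower at an adjusted p under 0.05 and grey for genes that did not pass. Vertical bars are list medians. The apolipoproteins (median 2.61) and the folding and transport genes (1.27) lie furthest to the right, and Lrp8 lies furthest to the left.

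The genes whose profile over the 5 libraries was most like that of Angptl4 were Atp13a4, Plet1, Rassf6, Procr and Slpi, among 11156 genes with a mean log2 CPM of at least 1. Likeness is the root mean square difference of centred log2 CPM, and it was 0.186, 0.214, 0.218, 0.219 and 0.241 in that order. Plet1, a surface protein of placental and skin progenitors, had 172 and 187 CPM in KO, against 1090, 1100 and 998 CPM in WT. Slpi, a secreted inhibitor of leukocyte proteases, had 15.3 and 26.5 CPM in KO, against 96.8, 105 and 78.2 CPM in WT. Nearest to Lpl were Ppp1r13b, Arf4, Etnk1, Carmil1 and Psma2, at 0.015 to 0.02. Arf4, a small GTPase of the Golgi, had 203 and 192 CPM in KO, against 245, 248 and 229 CPM in WT, the same small step as Lpl.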

How the data were processed

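The authors deposited 1 table of 17657 genes with, per the file headers, an expected count, a TPM and an FPKM value for each gene and library. Per the submitters' processing notes, expected counts came from RSEM 1.3.1 on GRCm38.p6, which divides reads shared by several transcripts by probability. The sources used here do not give the aligner, nor whether counting used strand. The deposited TPM and FPKM values are scaled for length and depth by the authors. TPM was used for levels between genes, and FPKM to check the ratios.

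Groups come from the sample titles. Rounded expected counts went into edgeR 4.0.16 (R 4.3.3): filterByExpr by group, TMM factors (0.988 to 1.02), the quasi-likelihood test without covariates, two-sided, Benjamini-Hochberg adjustment, threshold 0.05. CPM uses totals times TMM factors, and log2 CPM a prior count of 2. The test was first run on counts simulated with 1 spread for all libraries, which does not cover the unequal spread of KO and WT. Alternatives were DESeq2 size factors, library totals, DESeq2 1.42.0, limma-voom (limma 3.58.1) with 1 or a separate spread, no filter, a mean of at least 50 counts, limma on log2(TPM + 1), also unfiltered, and on log2(TPM + 0.1), with a minimum mean TPM of 1 otherwise, the replicate number as a block, and each library left out. A lone KO library took its spread from the WT libraries.

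The members and lists were chosen with earlier results of these data known, so they give no independent support. Named are all 10 members, the up to 3 tested genes of each pathway list with the smallest p, the 2 most abundant markers of each cell type list, and the 5 genes most like Angptl4 and Lpl. Some genes that the rule takes are left out of the text. Genes outside this rule are marked as chosen after their values were seen, and single markers at or near 0 and genes overlapping a member are given as checks. Strand is from GENCODE M21, since the strand in the deposited table differed from it for 2403 of 16927 matched genes. Counts of overlapping genes on opposite strands, and of near copies, are uncertain.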

Additional observations from a re-analysis of the deposited data

How the results depend on the processing

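With 2 KO libraries the calls depend on how the spread is estimated. Lipg, Angptl2 and Lrp1 kept direction and call in all 16 alternatives. With a separate spread per group, 3192 genes passed (1625 higher, 1567 lower in KO), 1 member was called lower, and the log2 change was -2.51 for Angptl4 and -0.30 for Lpl. On log2(TPM + 0.1), 19 pathway list genes were higher, and on log2(TPM + 1) without a filter 18 were, with Lmf1 at 1.04. The expected counts of low genes limit the text: Angptl7 and Gpihbp1 were under the count filter with all libraries kept.

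The libraries share replicate numbers but no stated pairing, and deviations of same-numbered libraries correlated at 0.00714 and 0.0676. With the replicate block, 1598 genes passed (804 higher, 794 lower), 14 pathway list genes passed (12 higher, 2 lower), and Lpl (-0.32, adjusted p = 0.166, range 0.00163 to 0.166) and Lmf1 (1.03, adjusted p = 0.0522, range 2.58e-05 to 0.081) lost the call.

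With 1 library left out, genes called ranged from 1957 to 8068 (980 to 3975 higher, 977 to 4093 lower), members called from 4 to 9 (2 to 6 higher, 2 to 4 lower) and pathway list genes from 13 to 66 (12 to 48 higher, 1 to 20 lower). Angptl7 reached the count filter in the fit without KO1, through the KO2 library, and is counted among the members there. Its log2 change in that fit was 2.67. With 1 library left out, the log2 change ranged from -1.18 to 2.77 for Angptl6 and from -0.36 to -0.23 for Lpl. It ranged from 0.69 to 1.51 for Lmf1 and from 0.05 to 0.55 for Vldlr. It ranged from -0.01 to 1.48 for Apod, -0.03 to 0.92 for Fbln1 and -0.10 to 0.22 for Krt14, each lowest without KO1, and from -0.22 without KO2 to 0.53 for Mlana. Of the other single-gene values under the alternatives, 724 kept direction and side of the threshold, 91 lost and 16 gained the call. The cause was not tested.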

Other observations

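Apoe and Apoc1 are neighbours on chromosome 7, and none of the other tested genes around them was called higher in KO. This set was chosen after the values were seen. Within 50 kb of Apoe, Tomm40, a mitochondrial import channel, had 120 and 121 CPM in KO, against 174, 174 and 179 CPM in WT (log2 change -0.54 ± 0.07, adjusted p = 0.0042, edgeR). Nectin2, a cell adhesion protein, had 130 and 185 CPM in KO, against 116, 123 and 110 CPM in WT (0.44 ± 0.16, adjusted p = 0.0775). Both KO libraries thus stood above WT for Nectin2, although it did not pass. Clptm1 had 156 and 180 CPM in KO, against 169, 162 and 174 CPM in WT (adjusted p = 0.993).

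Within 100 kb of Angptl4 on chromosome 17, also chosen after the values were seen, 9 other genes were tested. Of these 1 was higher and 2 were lower in KO, beside 20.4% higher and 20.4% lower among all tested genes. The count thus sets this region little apart from the rest. Kank3, the neighbour next to Angptl4 in the table on 1 side, had 11.9 and 13.6 CPM in KO, against 4.29, 3.73 and 4.32 CPM in WT (1.64 ± 0.14, adjusted p = 0.00253, edgeR). Rab11b, the neighbour on the other side, had 119 and 134 CPM in KO, against 111, 115 and 114 CPM in WT (0.16 ± 0.08, adjusted p = 0.158). Hnrnpm, a splicing factor, had 177 and 129 CPM in KO, against 252, 241 and 253 CPM in WT (-0.70 ± 0.15, adjusted p = 0.017), and the mitotic kinesin Kifc1 had 43.3 and 17.6 CPM in KO, against 71.2, 76.5 and 79.2 CPM in WT (-1.31 ± 0.37, adjusted p = 0.039).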
